A study of Mus musculus with 9 samples.

Results

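The ATP-binding cassette (ABC) transporter genes of the mouse lung were taken as the 50 genes, of 56263 listed, whose symbol is Abc followed by a letter from a to g, a number and, where present, a final letter. All 50 carry the ABC transporter domain PF00005 in the authors' annotation. The domain is listed for 73 genes in all, and 3 of the other 23, Cftr, Tap1 and Tap2, are ABC transporters with older names and are given below as companions. RNA was measured in 9 lung libraries from wild-type BALB/c mice, an inbred laboratory strain, with 3 libraries in each of 3 groups. As in the labels, C1 to C3 are the libraries of the Control, M1 to M3 those of the Model and Q1 to Q3 those of the QJHTD group. The mice were males, bought at an age of 6 to 8 weeks. Model mice breathed cigarette smoke during an experiment of 42 days and received 20 µg of lipopolysaccharide (LPS), a cell wall component of Gram-negative bacteria, on days 1 and 14, which is the study's model of chronic obstructive pulmonary disease. QJHTD mice had the same smoke and LPS and were also given QJHTD, a decoction of several medicinal herbs, at the highest of the study's doses. Control mice had none of the 3 treatments, so smoke and LPS cannot be told apart here, and the libraries were not stated to come from separate mice, so that p values measure the spread between these libraries.

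ABC transporters use the energy of ATP to move lipids, sterols, peptides, drugs or metal complexes across membranes. Most ABCA and ABCG proteins move lipids, the ABCB group contains P-glycoprotein and transporters of mitochondria and lysosomes, most ABCC proteins export conjugated organic anions, and ABCD proteins carry fatty acids into peroxisomes. ABCE and ABCF proteins have the ATP-binding cassettes without membrane segments and work at the ribosome. In the lung, ABCA3 loads surfactant lipid into the lamellar bodies of alveolar type 2 cells, and ABCA1 and ABCG1 remove cholesterol from alveolar macrophages.

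The promoters of 5 genes are shown because these genes carry the results that follow, with Abca1 and Abcb1b higher in the Model group, Abca8a and Abca17 lower, and Abca3 as the neighbour of Abca17 that was not called. Each run holds 250 bases before and 50 after the start site in RefSeq (GRCm38.p6), written 5′ to 3′ on the strand of the gene. Capitals mark matches, on either strand, to the GC box GGGCGG, the box CCAAT, the TATA box TATAAA and the E-box CACGTG.
Abca1: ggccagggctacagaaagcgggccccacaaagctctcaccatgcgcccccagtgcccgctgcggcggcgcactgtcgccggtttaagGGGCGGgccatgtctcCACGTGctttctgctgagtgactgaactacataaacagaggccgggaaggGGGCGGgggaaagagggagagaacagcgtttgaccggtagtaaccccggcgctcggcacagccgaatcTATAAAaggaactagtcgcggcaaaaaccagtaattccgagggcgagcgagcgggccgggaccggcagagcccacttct
Abcb1b: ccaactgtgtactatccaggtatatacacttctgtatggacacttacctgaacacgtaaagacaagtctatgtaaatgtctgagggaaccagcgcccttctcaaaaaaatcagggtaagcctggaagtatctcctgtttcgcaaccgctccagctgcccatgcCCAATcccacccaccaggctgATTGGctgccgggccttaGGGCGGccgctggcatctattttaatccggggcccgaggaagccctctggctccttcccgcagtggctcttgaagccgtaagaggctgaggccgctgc
Abca8a: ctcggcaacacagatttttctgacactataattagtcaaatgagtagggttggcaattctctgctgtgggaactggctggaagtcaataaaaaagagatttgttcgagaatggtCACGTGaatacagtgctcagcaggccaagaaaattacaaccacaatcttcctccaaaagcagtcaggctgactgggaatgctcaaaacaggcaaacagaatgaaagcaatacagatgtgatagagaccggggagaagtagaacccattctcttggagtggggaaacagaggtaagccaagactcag
Abca17: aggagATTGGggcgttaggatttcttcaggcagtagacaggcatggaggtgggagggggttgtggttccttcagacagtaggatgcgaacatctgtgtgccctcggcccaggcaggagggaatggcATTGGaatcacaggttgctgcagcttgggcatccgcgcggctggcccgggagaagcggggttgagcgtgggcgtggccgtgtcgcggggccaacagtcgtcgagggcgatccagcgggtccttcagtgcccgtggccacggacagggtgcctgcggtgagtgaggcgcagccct
Abca3: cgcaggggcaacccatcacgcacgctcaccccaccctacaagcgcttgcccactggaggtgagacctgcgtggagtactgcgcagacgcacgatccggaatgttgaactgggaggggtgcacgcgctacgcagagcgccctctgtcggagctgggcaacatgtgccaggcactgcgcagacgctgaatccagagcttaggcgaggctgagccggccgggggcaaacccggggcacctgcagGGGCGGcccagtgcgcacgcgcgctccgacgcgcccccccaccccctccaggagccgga
The Abca1 window (chr4:53159846-53160145, minus strand) held 26 CpG dinucleotides, 2 GC boxes, an E-box and a TATA box. Of 32851 RefSeq windows of the same length, 35.7% hold the GC box, 37.4% the CCAAT box, 13.6% the TATA box and 7.15% the E-box. The Abcb1b window (chr5:8797897-8798196, plus strand) held 12 CpG, 1 GC box and 2 CCAAT boxes. The Abca8a window (chr11:110095888-110096187, minus strand) held 4 CpG and an E-box, below the median of 7 CpG over all windows. The windows of Abca17 (chr17:24351010-24351309, minus strand) and Abca3 (chr17:24351773-24352072, plus strand) held 21 and 29 CpG, both above the upper quartile of 20, and their RefSeq start sites lie 964 bases apart on opposite strands. A match to these letters describes the window and does not show that a factor binds there.

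Values are TPM, levels scaled by transcript length and to a common total within each library, so that levels of different genes can be compared. Of the 50 genes, 33 had 1 TPM or more in 3 or more libraries and were tested among 16080 genes. The other 17 were not tested. Among them Abca15, Abca16 and Abcb5 were listed at 0 in all 9 libraries, and 15 of the 17 were not above 1 TPM in any library, including Abcb11, the bile salt export pump of liver, with at most 0.38 TPM, and Abca12, the lipid transporter of the skin barrier, with at most 0.05 TPM. Abcc8, the sulfonylurea receptor of pancreatic beta cells, reached 2.51 TPM in C3 and at most 0.88 TPM elsewhere, and Abcg3 reached 1.29 TPM in C1. In the Control group the highest mean levels were those of Abca3 with 54.0 ± 5.10 TPM (SD, n = 3), Abca8a with 51.6 ± 11.3 TPM and Abcd3, a fatty acid transporter of peroxisomes, with 40.9 ± 2.39 TPM. In the Model group Abca3 was again first with 60.7 ± 10.9 TPM, Abcg1 moved from 10th to 2nd place with 35.3 ± 4.26 TPM, and Abca8a moved from 2nd to 18th with 4.64 ± 3.42 TPM. The 50 genes together made up 443 ± 31.1 TPM in Control, 375 ± 30.3 TPM in Model and 393 ± 16.7 TPM in QJHTD libraries. Computed anew without the segment, hemoglobin and mitochondrial genes that are described next, the order turned, with 490 ± 35.3, 650 ± 29.8 and 688 ± 33.3 TPM.

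The makeup of the libraries bears on every difference below. Antibody and T-cell receptor segments took 0.296 to 0.605% of all TPM in Control libraries and 36.2 to 43.7% in Model and QJHTD libraries, while Scgb1a1, the secretory protein of club cells, took 21.3 to 23.8% in Control libraries and 1.18 to 3.16% in the others. TPM add to a fixed total, so such shifts alter the values of other genes, and their part in the differences was not tested. The median log2 difference between Model and Control over all genes tested was -0.47 as deposited. Median-ratio rescaling brought it to 0.01, quantile normalization to -0.16, and TPM computed anew after removal of segments, hemoglobin genes and mitochondrial genes to 0.08. Differences are therefore given on the log2(TPM + 1) scale as deposited, which understates changes of low genes, together with what became of them at these 3 other scalings. M2 and Q1 stood apart with the lowest ciliated-cell genes (summed TPM 109 and 119, against 182 to 291 in the other exposed libraries), and results are also given without both, an alternative added after seeing the data. Summed markers of neutrophils were 156 to 356 TPM in Control and 6428 to 13596 TPM in Model libraries, those of macrophages 3761 to 5234 and 9289 to 10749 TPM, those of plasma cells 330 to 494 and 9634 to 11532 TPM, those of endothelium 2324 to 2564 and 301 to 341 TPM, and those of club cells 223160 to 251238 and 13651 to 34875 TPM. In such bulk samples, fewer cells of a type and less RNA per cell cannot be told apart, and the part of these shifts in the ABC results was not tested.

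Between the Model and Control groups, the question was which ABC genes differed after smoke and LPS. The genes that rose were Abca1, Abcg1, Abcb1b and Abcc4, with the mean TPM of Abca1 3.79-fold and that of Abcg1 2.57-fold higher. Those that fell most were Abca8a, Abca8b, Abca17, Abca5, Abcb1a and Abca4, with the mean of Abca8a 11.1-fold and that of Abca17 3.67-fold lower. By limma with Benjamini-Hochberg adjustment over all genes, 4 of 33 ABC genes rose (12.1%), against 16.6% of all genes tested. Another 17 fell (51.5%), against 56.5% of all, so that neither share lay above the background as deposited. The median log2 difference of the 33 genes was -0.31, against -0.47 over all genes. After median-ratio rescaling 14 of the 33 were higher, against 31.8% of all genes, and 7 lower, against 28.5%. At each of the 3 other scalings the share called higher lay above that of all genes, and the share called lower lay below. These differences in shares were not tested. The 4 rises and 7 of the falls, those of Abca8a, Abca8b, Abca17, Abca5, Abcb1a, Abca4 and Abca9, were called at all 4 scalings. How many of all genes tested were called at all 4 was not counted, so these numbers have no background. The other 10 falls, of Abcg2, Abcb6, Abcb9, Abcf3, Abcc10, Abcb10, Abcd4, Abcc5, Abcd3 and Abcf2, were not called as falls at every scaling, and those of Abcc5, Abcd3, Abcd4 and Abcf2 turned to positive differences at 1 or more of them. In 4 of the 33 genes all Model libraries lay above all Control libraries (17.3% of all genes tested), in 18 all lay below (58.5%), and in 11 they overlapped. Without M2 and Q1, 5 rose and 14 fell, and leaving out 1 library at a time gave 4 or 5 rises and 13 to 16 falls. Over all 16080 genes tested, 2579 rose and 8080 fell without M2 and Q1. Leaving out 1 library gave 2418 to 2662 rises and 8132 to 9023 falls over all genes.

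**Figure D1:**
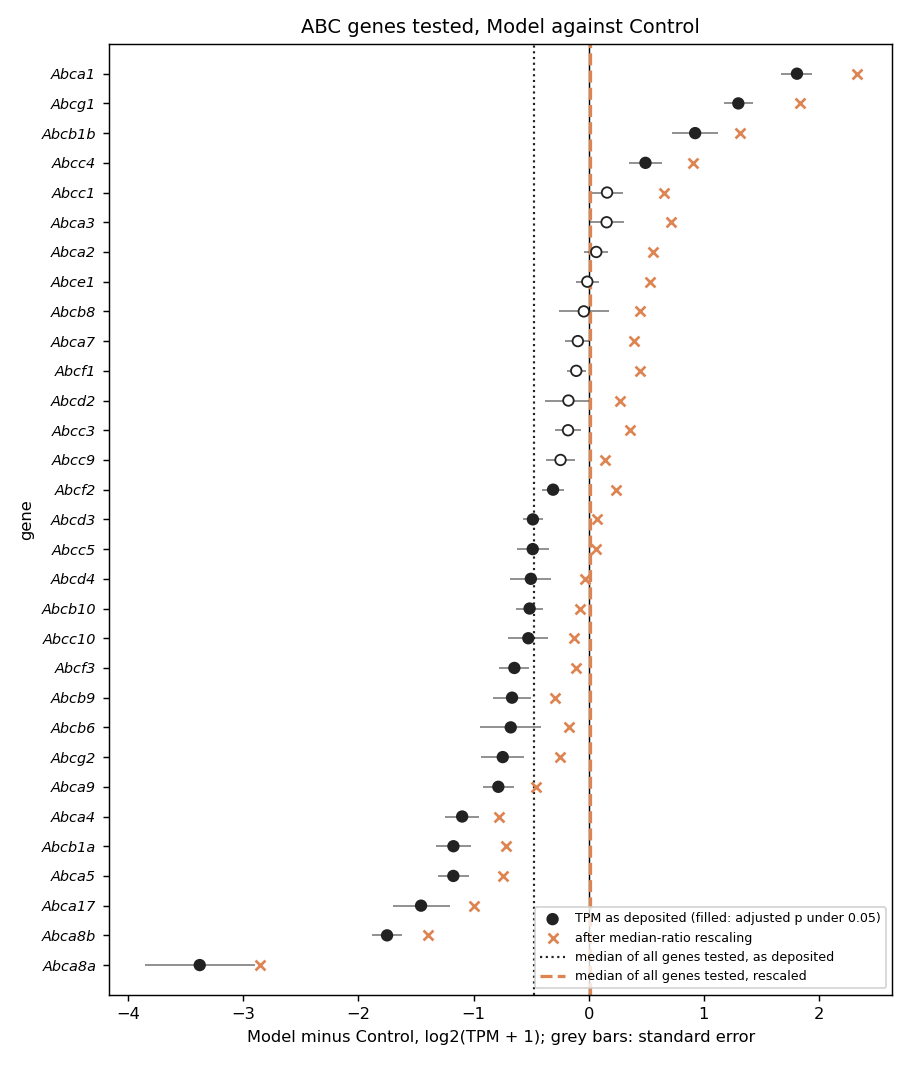
Difference between the Model and Control groups for 31 of the 33 ABC genes tested, on the log2(TPM + 1) scale, with circles for TPM as deposited (filled where the limma adjusted p was under 0.05, grey bars for the standard error), crosses for values after median-ratio rescaling, and dotted and dashed lines for the median of all genes tested at either scaling. Abca1, Abcg1, Abcb1b and Abcc4 lie above 0 and Abca8a, Abca8b, Abca17, Abca5, Abcb1a, Abca4 and Abca9 below 0 with both symbols, while 10 genes from Abce1 down to Abcc5 have circles below 0 and crosses above 0.

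Of the 4 rises, 2 were of sterol exporters and 2 of drug and conjugate pumps. Among the 4 tested sterol and phospholipid exporters Abca1 and Abcg1 rose and none fell (16.6% and 56.5% of all genes tested). ABCA1, which passes cholesterol and phospholipid to lipid-poor apolipoproteins, had its RNA at 9.01, 9.32 and 7.40 TPM in C1 to C3, at 36.2, 29.2 and 32.2 TPM in M1 to M3 and at 34.3, 27.7 and 25.8 TPM in Q1 to Q3. Each of the 6 exposed libraries was far above each Control library, and the Model and QJHTD libraries overlapped. The log2 difference of Abca1 between Model and Control was 1.81 ± 0.13 (SE), with an adjusted p of 5.61e-06 by limma, and it was 2.16 to 2.45 at the other scalings. Abcg1, whose protein hands cholesterol on to mature high-density lipoprotein, was at 13.1, 15.2 and 12.8 TPM in C1 to C3, 38.7, 36.7 and 30.5 TPM in M1 to M3 and 37.2, 45.3 and 35.8 TPM in Q1 to Q3. Its libraries again fell into a low Control set and a high exposed set without overlap. Abcg1 had a log2 difference of 1.30 ± 0.13 with an adjusted p of 2.66e-05 by limma, which was 1.65 to 1.94 at the other scalings. Their sum went from 22.3 ± 2.18 to 67.8 ± 6.30 TPM, and Abca1 made up 36.6 to 40.8% of it in Control and 44.3 to 51.3% in Model libraries. Abca2, a lipid transporter of late endosomes and lysosomes, and Abca7, a phospholipid exporter related to Abca1, had log2 differences of 0.07 and -0.09 that were not called. Both were called higher at each of the 3 other scalings, where the difference of Abca7 was 0.27 to 0.48. Abcb4, Abcg4, Abcg5 and Abcg8, the remaining sterol and phospholipid exporters, were at or below 0.35 TPM in each library and were not tested.

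Genes that make, store or sense sterols, from a list of 19 written for the same pathway, went both ways. Of 18 tested, 7 were higher, 7 lower and 4 not called, against 16.6% higher and 56.5% lower over all genes tested. Apoe, the apolipoprotein that accepts cholesterol from both exporters, rose from 857 ± 58.8 to 8297 ± 1201 TPM, the largest rise of the list. Ch25h, which makes 25-hydroxycholesterol, rose from 2.78 ± 0.87 to 18.5 ± 3.92 TPM. Lipa, the acid lipase of the lysosome, rose from 18.3 ± 2.33 to 47.7 ± 4.51 TPM. Mylip, a target of the liver X receptors that marks the LDL receptor for breakdown, rose from 11.6 ± 1.08 to 19.3 ± 1.96 TPM. Cyp27a1, which makes 27-hydroxycholesterol, fell from 13.98 ± 3.15 to 3.80 ± 0.81 TPM. The 5 changes named so far in the list were called at all 4 scalings. Nr1h3, the liver X receptor alpha itself, went from 28.8 ± 2.46 to 17.4 ± 1.14 TPM, a fall that was not called after median-ratio rescaling or with the recomputed TPM. After median-ratio rescaling 11 of the 18 were higher and 2 lower (31.8% and 28.5% of all genes tested). The summed markers of macrophages, which express many of these genes, were higher in every exposed library, as given above. Lyz2 weighed most in that sum, with a mean of 9223 TPM in the Model group. The mean log2(TPM + 1) of these markers was 4.47 to 4.65 in Control and 6.14 to 6.42 in exposed libraries. Mrc1 and Mertk among them were not called between QJHTD and Control as deposited, while the others rose. The part of macrophages was not tested.

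**Figure D2:**
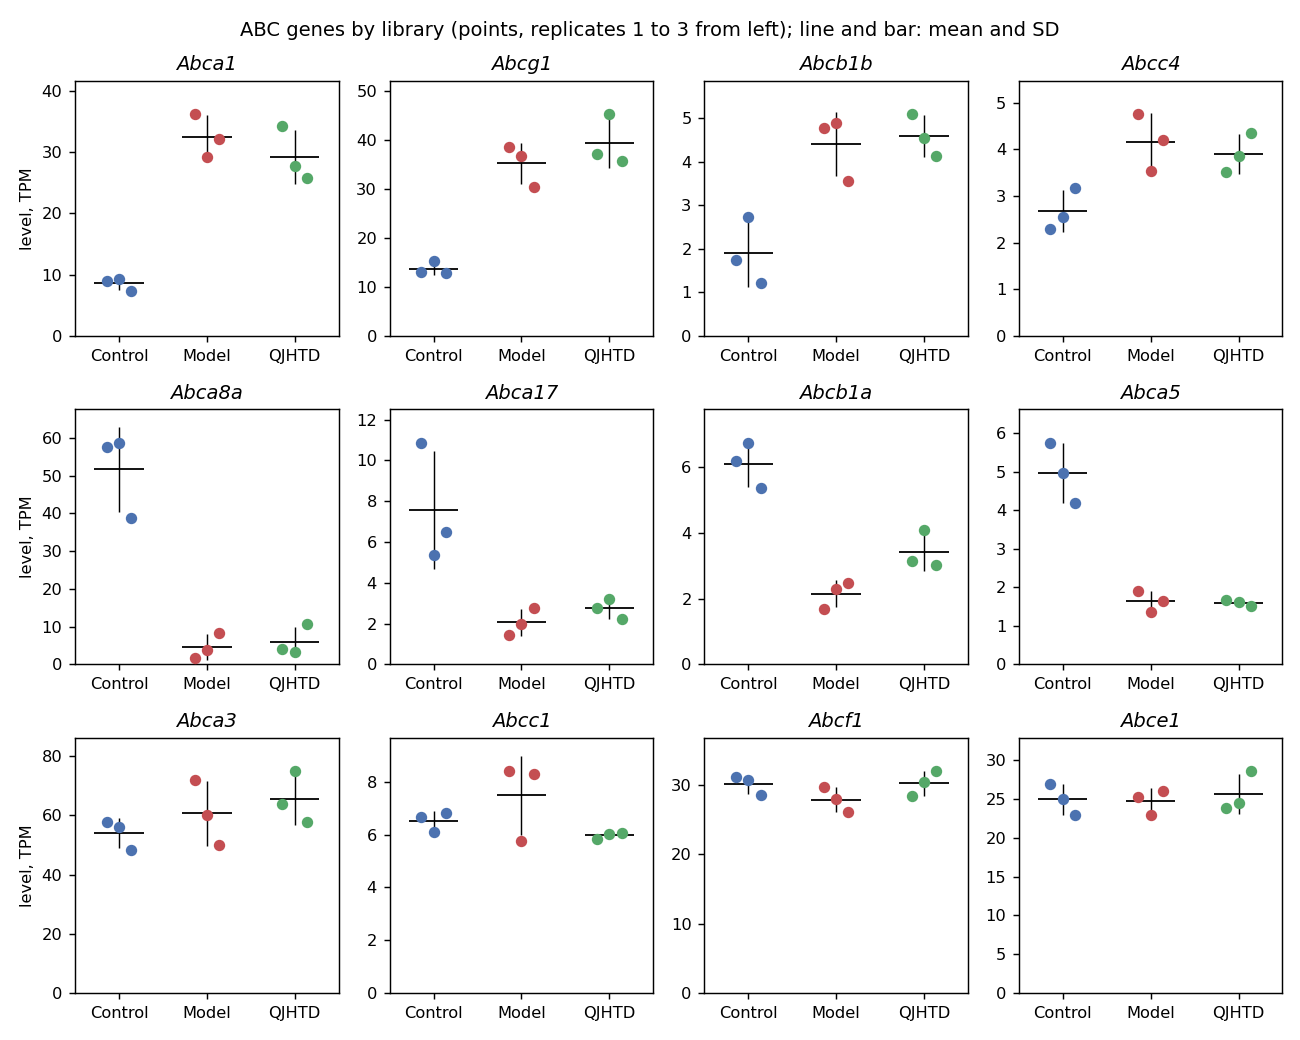
Level in TPM (vertical axes, from 0) of 12 ABC genes in each library of the Control, Model and QJHTD groups (points), with the mean (line) and SD (bar) of 3 libraries. Abca1, Abcg1, Abcb1b and Abcc4 lie higher in all 6 exposed libraries than in the Control libraries, Abca8a, Abca17, Abcb1a and Abca5 lie lower, and Abca3, Abcc1, Abcf1 and Abce1 overlap between Control and Model.

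Abca3, the surfactant lipid transporter, had the highest mean level of the 50 genes in each group. It was at 57.7, 56.1 and 48.2 TPM in C1 to C3, 71.8, 60.2 and 50.1 TPM in M1 to M3 and 63.7, 74.9 and 57.8 TPM in Q1 to Q3. The Model libraries overlapped with those of both other groups, M3 being below C1 and C2, while Q3, the lowest QJHTD library, was just above C1. The log2 difference of 0.16 ± 0.15 between Model and Control had an adjusted p of 0.360 by limma, while at the other scalings Abca3 was called higher, by 0.42 to 0.80. Part of its exons, 9.75% of the bases, overlaps a gene on the opposite strand, and the use of strand in counting was not given in the sources used here. Of 10 genes of the surfactant system, 2 rose, 3 fell and 5 were not called as deposited (16.6% of all genes tested rose and 56.5% fell). These became 6 higher and 1 lower after median-ratio rescaling (31.8% and 28.5% of all). They became 2 higher and 5 lower after quantile normalization (4011 and 6214 of all 16080). Sftpd, the collectin surfactant protein D, rose from 548 ± 101 to 1104 ± 133 TPM, and Nkx2-1, the transcription factor of alveolar and airway epithelium, fell from 125 ± 12.4 to 46.5 ± 5.17 TPM, both at all 4 scalings. Lamp3, the lamellar body membrane protein, was at 115 ± 23.3 and 130 ± 11.6 TPM and was not called as deposited or after quantile normalization, but was higher by 0.76 after median-ratio rescaling (adjusted p 0.00311 by limma) and by 0.84 with recomputed TPM. The summed markers of alveolar type 2 cells, in which Sftpc weighs most, were 24993 to 38240 TPM in Control and 15619 to 17813 TPM in Model libraries. Their mean log2(TPM + 1), in which each marker weighs the same, overlapped, with 8.52 to 9.02 in Control and 8.54 to 8.86 in Model libraries.

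Of the 11 other ABCA genes, the 6 that were tested fell after smoke and LPS at all 4 scalings. Over all genes tested, 56.5% fell as deposited and 28.5% after median-ratio rescaling. Abca8a, a relative of the human lipid transporter ABCA8, was at 57.6, 58.7 and 38.7 TPM in C1 to C3, 1.76, 3.75 and 8.42 TPM in M1 to M3 and 4.16, 3.22 and 10.6 TPM in Q1 to Q3. The exposed libraries lay far below the Control libraries, and M3 and Q3 were the highest of them. The log2 difference of Abca8a was -3.38 ± 0.48 with an adjusted p of 0.000243 by limma, and -3.05 to -2.86 at the other scalings. Abca8a belongs to a row of ABCA genes on chromosome 11, in the order Abca8b, Abca8a, Abca9, Abca6 and Abca5, all on the minus strand from position 109932190 to 110337716 (GRCm38). Of the other 4 genes of the row, which are named here because of this place and after their values were seen, Abca8b went from 3.90 ± 0.54 to 0.45 ± 0.10 TPM, Abca9 from 2.05 ± 0.43 to 0.76 ± 0.07 TPM, and Abca5, a lysosomal member, from 4.97 ± 0.78 to 1.64 ± 0.28 TPM. Abca6 was below 1 TPM throughout and not tested, with 0.59 ± 0.13 and 0.10 ± 0.03 TPM. In each of the 5 genes all Model libraries lay below all Control libraries, as they did in 58.5% of all genes tested. Abca8a made up 80.1 to 82.8% of the row's summed TPM in Control libraries, and 35.9, 59.2 and 72.8% in M1 to M3. The transcripts of Abca8a and Abca8b share 1.81% of their 50-base stretches, as a share of Abca8a, and no stretch of 100 bases.

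M3 and Q3, the exposed libraries highest in Abca8a, were also the highest of their groups in summed cardiomyocyte markers, with 140 TPM against 51.1 and 22.5 TPM in M1 and M2, and 345 TPM against 18.0 and 41.1 TPM in Q1 and Q2. In Control libraries these markers summed to 507, 1001 and 1741 TPM, and C3, the highest, was the lowest Control library in Abca8a. This order was not particular to cardiomyocyte markers. M3 and Q3 were also the highest of their groups in markers of endothelium (341 and 457 TPM), of smooth muscle and pericytes (150 and 181 TPM) and of adipocytes (98.5 and 87.8 TPM). They were the lowest of their groups in macrophage markers (9289 and 8954 TPM). Endothelial markers were 2324 to 2564 TPM in Control, lowest in C3, and 301 to 457 TPM in exposed libraries. Smooth muscle and pericyte markers were 450 to 592 and 96.3 to 181 TPM. Fibroblast markers overlapped between Control (503 to 688 TPM) and exposed libraries (497 to 680 TPM). For these, Q3 was the highest QJHTD library (680 TPM), while M3 (498 TPM) lay below M2 (586 TPM). The part of these cells in the falls of the ABCA genes was not tested. Abca4, the retinoid flippase known from photoreceptors, fell as well and is named after its values were seen, from 2.41 ± 0.43 to 0.59 ± 0.19 TPM.

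Abca17, a rodent member closely related to Abca3 and best known from testis, lies head to head with Abca3 on chromosome 17, with 881 bases between the genes. It was at 10.9, 5.37 and 6.49 TPM in C1 to C3, 1.45, 1.98 and 2.76 TPM in M1 to M3 and 2.79, 3.22 and 2.22 TPM in Q1 to Q3. All exposed libraries were below all Control libraries, among which C1 stood highest. For Abca17 the log2 difference was -1.46 ± 0.25 with an adjusted p of 0.00069 by limma, and -1.10 to -0.998 at the other scalings. Abca17 made up 8.74 to 15.9% of the sum of both genes in Control and 1.98 to 5.22% in Model libraries. This share is set within each library and is not altered by scalings that multiply a library by 1 factor, unlike quantile normalization. The pair has 2.63% of the 50-base stretches of Abca17 in common.

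P-glycoprotein, the drug efflux pump, is encoded by 2 genes in the mouse, Abcb1a and Abcb1b, side by side on chromosome 5, and they went in opposite directions. Abcb1a, the form known from the endothelium of the blood-brain barrier and from gut, was at 6.19, 6.74 and 5.36 TPM in C1 to C3, 1.68, 2.29 and 2.49 TPM in M1 to M3 and 3.13, 4.09 and 3.03 TPM in Q1 to Q3. The 3 groups did not overlap for Abcb1a, with the Control highest, the Model lowest and the QJHTD libraries between them. Its log2 difference between Model and Control was -1.17 ± 0.15 with an adjusted p of 0.000133 by limma, and -0.82 to -0.72 at the other scalings. Abcb1b, the form known from adrenal gland and pregnant uterus, was at 1.75, 2.73 and 1.21 TPM in C1 to C3, 4.77, 4.90 and 3.55 TPM in M1 to M3 and 5.09, 4.55 and 4.13 TPM in Q1 to Q3. Every exposed library was above every Control library. For Abcb1b the log2 difference was 0.92 ± 0.20 with an adjusted p of 0.00248 by limma, and 1.22 to 1.50 at the other scalings.

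The sum of both P-glycoprotein genes stayed within 6.04 to 9.47 TPM over the 9 libraries as deposited, while its makeup differed. After median-ratio rescaling the sum was 5.28 to 7.50 in Control, 6.49 to 9.07 in Model and 7.66 to 9.75 in QJHTD libraries, the last without overlap with Control. Abcb1a was 78.0, 71.2 and 81.6% of the sum in C1 to C3, 26.05, 31.8 and 41.2% in M1 to M3 and 38.1, 47.3 and 42.3% in Q1 to Q3. Control shares lay apart from those of all exposed libraries, and those of M3 and Q1 crossed, so that the Model and QJHTD shares overlapped. The transcripts of the pair have 15.5% of the 50-base stretches of Abcb1a and 7.49% of its 100-base stretches in common, so reads from these stretches cannot be given to either gene by sequence alone. The longest common run has 338 bases, from base 1509 of an Abcb1a and base 1476 of an Abcb1b transcript in GENCODE, and its first 150 are shown because they make plain how alike the genes are.
Abcb1a and Abcb1b: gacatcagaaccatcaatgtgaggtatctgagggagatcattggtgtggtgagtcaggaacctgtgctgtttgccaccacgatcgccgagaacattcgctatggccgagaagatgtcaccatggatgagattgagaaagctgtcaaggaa
RSEM, which the submitters' notes name, divides such reads by a model, and the levels of both genes rest on that division. In addition, 10.1% of the exonic bases of Abcb1a overlap Gm42686 on the opposite strand, and 1.79% of those of Abcb1b overlap Gm5106. The use of strand in counting was not given. Endothelial markers, given above, were lower in each exposed library, and their part in the fall of Abcb1a was not tested.

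**Figure D3:**
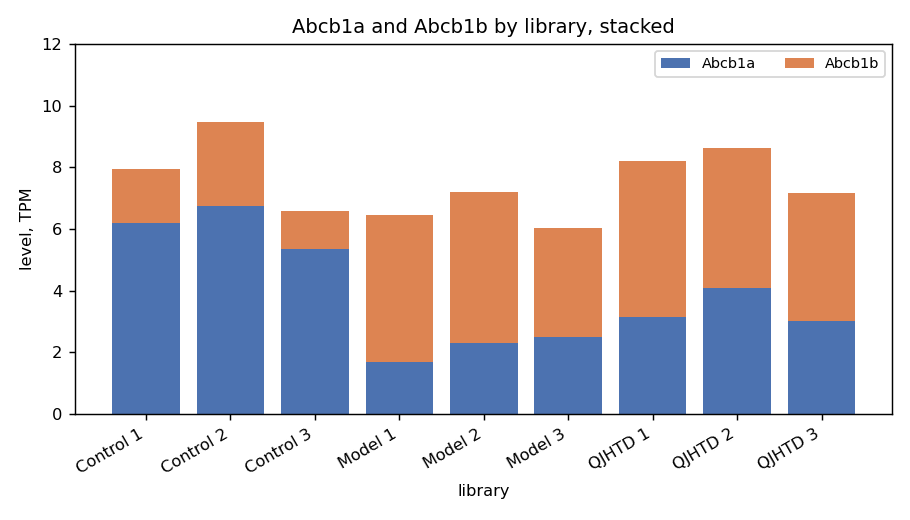
Level in TPM of Abcb1a (blue) and Abcb1b (orange), stacked, in each of the 9 libraries (bars from 0). As deposited, the total stays between 6.04 and 9.47 TPM, while the Abcb1a share is 71.2 to 81.6% in Control, 26.05 to 41.2% in Model and 38.1 to 47.3% in QJHTD libraries.

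Among the other pumps of drugs and conjugates, 1 rose, 3 fell and 2 were not called as deposited. Over all genes tested, 16.6% rose and 56.5% fell. Abcc4, an exporter of cyclic nucleotides and prostaglandins that is named here after its values were seen, was at 2.30, 2.54 and 3.17 TPM in C1 to C3, 4.75, 3.54 and 4.20 TPM in M1 to M3 and 3.51, 3.85 and 4.35 TPM in Q1 to Q3. All exposed libraries were above all Control libraries, C3 being nearest to them. Its log2 difference was 0.49 ± 0.14 with an adjusted p of 0.0109 by limma, and 0.83 to 1.05 at the other scalings. Abcg2, the breast cancer resistance protein, which exports urate, porphyrins and many drugs, was at 9.58, 8.76 and 10.1 TPM in C1 to C3, 4.36, 4.27 and 7.59 TPM in M1 to M3 and 5.08, 6.25 and 5.94 TPM in Q1 to Q3. No exposed library reached the Control range, with M3 the nearest. The log2 difference of Abcg2 was -0.75 ± 0.19 with an adjusted p of 0.00570 by limma, and it was not called after median-ratio rescaling, where it was -0.25 with an adjusted p of 0.213. Abcc1, the exporter of glutathione conjugates and leukotriene C4, was at 6.67, 6.09 and 6.81 TPM in C1 to C3, 8.40, 5.76 and 8.31 TPM in M1 to M3 and 5.84, 6.03 and 6.06 TPM in Q1 to Q3. M1 and M3 were above all other libraries and M2 was the lowest. Abcc1 was not called (log2 difference 0.16 ± 0.14, adjusted p 0.312 by limma), but it was called without M2 (0.32, adjusted p 0.0234) and at each of the 3 other scalings. Abcc5, an exporter of cyclic nucleotides, and Abcc10 were lower as deposited, the latter with an adjusted p of 0.0215 that was 0.0730 without C1 and 0.0687 without M2. Abcc3, another exporter of conjugates, was not called as deposited or after quantile normalization. It was called higher by 0.36 after median-ratio rescaling (adjusted p 0.0423 by limma) and by 0.44 with recomputed TPM (adjusted p 0.00933).

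Of 10 tested genes of glutathione conjugation and xenobiotic sensing, 1 rose, 6 fell and 3 were not called. Over all genes tested, 16.6% rose and 56.5% fell. Hmox1, the inducible heme oxygenase, rose from 33.0 ± 4.31 to 154 ± 16.4 TPM. Gstp1, a glutathione S-transferase, fell from 332 ± 22.5 to 138 ± 10.7 TPM, and Ahr, the aryl hydrocarbon receptor that senses smoke components, fell from 15.8 ± 1.01 to 6.90 ± 0.84 TPM. These 3 changes were called at all 4 scalings. Gclc, which makes the first step of glutathione synthesis, was at 37.3 and 44.2 TPM in the Control and Model groups and was not called as deposited, but was higher at the 3 other scalings. After median-ratio rescaling 3 of the 10 were higher and 4 lower (31.8% and 28.5% of all genes tested).

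The 6 members of mitochondria and lysosomes, all tested, had no rise and 4 falls as deposited (16.6% and 56.5% of all genes tested). None of these falls was called after median-ratio rescaling. Abcb6, a porphyrin transporter, was at 4.48 to 9.97 TPM in Model and 10.2 to 16.2 TPM in Control libraries, without overlap. The fall of Abcb6 had an adjusted p of 0.0428 by limma, which was 0.136 without M2, 0.148 without C3 and 0.0510 to 0.0562 without C1, M3 or any 1 of the QJHTD libraries. Abcb6 shares 55.2% of its exonic bases with Gm29253 on the same strand, so that the division of reads between them is uncertain. Abcd4, the lysosomal exporter of vitamin B12, was at 6.07 ± 0.99 and 3.96 ± 0.19 TPM, with an adjusted p of 0.0291 that was 0.102 without C1, 0.0525 without M1, 0.0732 without M2 and 0.0604 without M3. Of 11 genes of mitochondrial iron-sulfur and heme synthesis 9 fell and none rose (56.5% and 16.6% of all genes tested), with Alas1, the first enzyme of heme synthesis, at 683 ± 17.0 and 191 ± 41.6 TPM. After median-ratio rescaling 5 of the 11 were lower and 1 higher (28.5% and 31.8% of all), and Alas1 was lower at all 4 scalings.

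Of the peroxisomal members, Abcd3 fell as deposited and none rose. Abcd3 went from 40.9 ± 2.39 to 29.0 ± 2.31 TPM, a log2 difference of -0.48 that was near the median of all genes and became 0.07 after median-ratio rescaling. In a list of 10 genes of peroxisomal beta-oxidation, 9 fell and 1 rose (56.5% and 16.6% of all genes tested). These became 3 lower and 1 higher after median-ratio rescaling, the former then close to the 28.5% of all genes tested that were lower. Acsl1, which activates long chain fatty acids, fell from 45.5 ± 6.64 to 18.3 ± 2.92 TPM, and Acox3, an acyl-CoA oxidase, rose from 10.6 ± 0.99 to 15.7 ± 1.63 TPM, both at all 4 scalings.

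Of the 4 members that work at the ribosome, none rose and 2 fell as deposited (16.6% and 56.5% of all genes tested). Abce1, which splits ribosomes after termination, was at 27.0, 25.03 and 23.0 TPM in C1 to C3, 25.3, 22.9 and 26.1 TPM in M1 to M3 and 23.9, 24.6 and 28.6 TPM in Q1 to Q3. The libraries of all groups overlapped within this range. The log2 difference of Abce1 was -0.01 ± 0.10 (adjusted p 0.918 by limma), with a sign that turned without C1 or M2, and at the other scalings it was called higher by 0.34 to 0.62. Abcf1, a factor of translation initiation, was at 31.1, 30.6 and 28.5 TPM in C1 to C3, 29.6, 27.9 and 26.02 TPM in M1 to M3 and 28.3, 30.4 and 31.9 TPM in Q1 to Q3, which again overlapped. Abcf2 and Abcf3, its less studied relatives, fell as deposited from 24.1 ± 1.95 to 19.2 ± 1.65 TPM and from 21.7 ± 3.03 to 13.4 ± 1.38 TPM. The fall of Abcf2 (adjusted p 0.0179 by limma) was not called without C1, C2, M2 or M3 (adjusted p 0.0548 to 0.0607) and turned to a rise of 0.23 after median-ratio rescaling. In a list of 6 genes of ribosome rescue and termination none rose and 4 fell (16.6% and 56.5% of all genes tested). These became 3 higher and none lower after median-ratio rescaling (31.8% and 28.5% of all).

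Abcc9, the regulatory subunit of the potassium channel of vascular smooth muscle, was at 2.93, 2.39 and 2.07 TPM in C1 to C3, 1.76, 1.94 and 2.03 TPM in M1 to M3 and 2.14, 2.05 and 1.96 TPM in Q1 to Q3. Each Model library was below each Control library, by a narrow margin between C3 and M3. The difference of -0.24 ± 0.12 was not called (adjusted p 0.104 by limma) and turned to 0.08 to 0.22 at the other scalings. Its channel partner Kcnj8 was at 5.05 ± 0.35 and 5.01 ± 0.93 TPM and was not called as deposited or after quantile normalization, but was higher by 0.45 after median-ratio rescaling (adjusted p 0.0426 by limma) and by 0.54 with recomputed TPM.

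The ABC transporters with other names moved as follows. Tap1, a subunit of the peptide pump that feeds class I histocompatibility molecules, was at 21.5, 15.0 and 17.6 TPM in C1 to C3, 65.6, 65.6 and 68.0 TPM in M1 to M3 and 53.8, 96.2 and 66.3 TPM in Q1 to Q3. Its partner Tap2 was at 35.9 ± 3.71 and 49.3 ± 1.10 TPM in the Control and Model groups. Both rose at all 4 scalings, with log2 differences of 1.84 and 0.45 as deposited. Of 7 genes of antigen peptide loading 5 rose and none fell (16.6% and 56.5% of all genes tested). Among them Psmb8, a subunit of the immunoproteasome, rose from 84.5 ± 8.87 to 240 ± 21.7 TPM. Cftr, the chloride channel mutated in cystic fibrosis, went from 6.88 ± 1.27 to 4.30 ± 0.97 TPM, with an adjusted p of 0.0173 by limma that was 0.603 after median-ratio rescaling.

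By role, the summed TPM put these differences side by side, without a test since the members were chosen with earlier results known. The 8 sterol and phospholipid exporters went from 36.1 ± 2.35 TPM in Control to 81.4 ± 7.35 TPM in Model and 83.2 ± 5.79 TPM in QJHTD libraries. The 11 other ABCA genes went from 73.5 ± 13.99 to 10.4 ± 4.21 and 13.0 ± 3.44 TPM. The 13 pumps of drugs, conjugates and bile salts stood at 81.3 ± 4.81, 65.5 ± 7.57 and 66.4 ± 1.75 TPM, and the 4 ribosomal and translation factors at 101 ± 7.12, 85.3 ± 4.91 and 90.6 ± 6.10 TPM. As deposited, only the sterol and phospholipid exporters and the surfactant and skin lipid transporters had a higher mean sum in the Model than in the Control group. After median-ratio rescaling, 6 of the 8 roles did, the ribosomal and translation factors with 97.4 against 77.4 among them, and the other ABCA genes, with 11.8 against 56.3, and the potassium channel regulators with Abcc6 were lower.

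**Figure D4:**
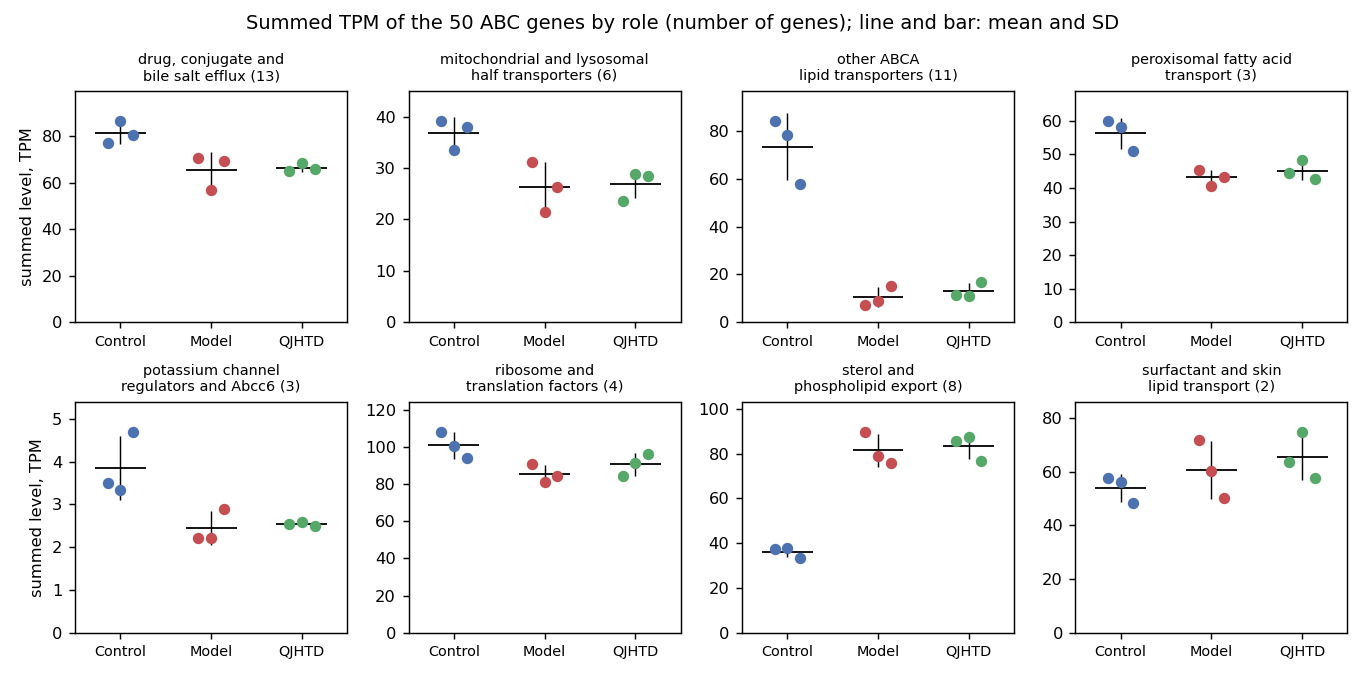
Summed TPM of the 50 ABC genes in 8 roles (one panel each, number of genes in brackets, vertical axes from 0) in each library of the Control, Model and QJHTD groups (points), with the mean (line) and SD (bar) of 3 libraries. The sterol and phospholipid exporters rise from 36.1 to 81.4 TPM, and the other ABCA lipid transporters drop from 73.5 to 10.4 TPM in the mean between Control and Model.

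Between the QJHTD and Model groups, the question was whether the decoction changed the ABC genes of exposed lungs. No ABC gene of 33 was called by limma, with 0.0124% of all genes tested called higher and 0.0% lower. Abcb1a was the 1 member with an unadjusted p under 0.05 (4.1% of all genes tested were so in the higher and 2.74% in the lower direction). Its mean went from 2.15 ± 0.42 to 3.42 ± 0.59 TPM, a log2 difference of 0.49 ± 0.15 with an unadjusted p of 0.0103 and an adjusted p of 0.621 by limma, which ranged from 0.424 to 1.0 over the alternatives. Summed endothelial markers lay the same way, at 301 to 341 TPM in the Model and 345 to 457 TPM in the QJHTD libraries. None of these markers was called singly (lowest adjusted p 0.568 by limma, for Tek), and their part in this difference was not tested. All QJHTD libraries lay above all Model libraries for Abcb1a and Abca9, 2 of 33 members, against 8.44% of all genes, and for none did all lie below, against 3.81% of all. Abca9, a member of the row on chromosome 11, was at 0.68, 0.78 and 0.82 TPM in the Model and 1.09, 0.97 and 0.92 TPM in the QJHTD libraries, and its Control libraries were at 1.95, 2.52 and 1.68 TPM. Its difference was 0.18 ± 0.14 with an adjusted p of 0.848 by limma.

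The remaining members with the smallest p in this comparison were Abcc1, Abca2 and Abcf1. Abcc1 was lower in the QJHTD group by the group means, with a log2 difference of -0.27 ± 0.14 and an unadjusted p of 0.0822, and Q1 to Q3 lay between M2 and the other Model libraries. Abca2 was at 7.18, 6.70 and 6.05 TPM in C1 to C3, 7.78, 6.55 and 6.68 TPM in M1 to M3 and 7.82, 7.70 and 8.12 TPM in Q1 to Q3. M1 lay among the QJHTD libraries, and the difference of 0.15 ± 0.10 had an unadjusted p of 0.171. The difference of Abcf1 was 0.11 ± 0.08 with an unadjusted p of 0.211. The median difference over the 33 genes was 0.09, against 0.05 over all genes tested, and no member differed by as much as 0.5 in either direction. A p that misses the threshold does not show that the groups were alike, and at 3 libraries a group a standard error of 0.48 left Abca8a, for 1, with a difference of 0.34 that could not be told from 0.

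**Figure D5:**
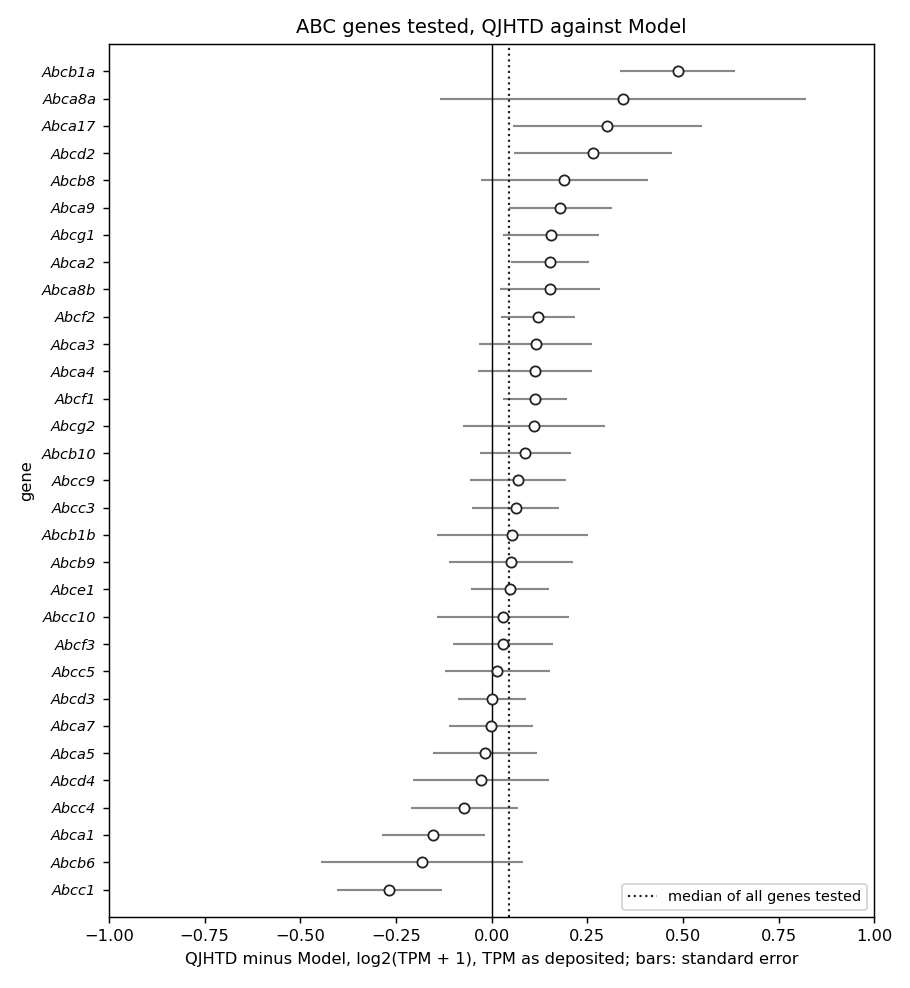
Difference between the QJHTD and Model groups for 31 of the 33 ABC genes tested, on the log2(TPM + 1) scale of the TPM as deposited (circles, bars for the standard error), with a dotted line at the median of all genes tested. No circle is filled because none was called, and they run from -0.27 for Abcc1 to 0.49 for Abcb1a.

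Set against the Control group, the QJHTD group gave 4 rises among the 33 genes, against 17.0% of all genes tested, and 16 falls, against 53.7%. This comparison shares its Control libraries with the one above, and the calls are given side by side for that reason. As deposited, the 4 genes that rose and 16 of the 17 that fell in the Model group were called in the same direction in the QJHTD group, and Abcf2 was called in the Model group alone. Leaving out 1 library at a time gave 3 or 4 rises and 13 to 16 falls (2490 to 2764 and 7611 to 8670 over all 16080 genes tested). The log2 difference from Control was 1.66 ± 0.13 for Abca1, 1.45 ± 0.13 for Abcg1, 0.98 ± 0.20 for Abcb1b and -3.03 ± 0.48 for Abca8a. That of Abcb1a was -0.69 ± 0.15 with an adjusted p of 0.00295 by limma, and it was not called at any of the 3 other scalings, where it was -0.36 to -0.16 with an adjusted p of 0.0652 to 0.448. The fall of Abca9 was not called at any of these 3 scalings either (adjusted p 0.0755 to 0.215 by limma). That of Abca17 was not called with recomputed TPM (adjusted p 0.0600 by limma). Whether a difference from Control was of another size in the QJHTD than in the Model group is the comparison of those groups with each other, in which no member was called.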

How the data were processed

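Total RNA of mouse lung was made into 9 libraries with a SMARTER mRNA kit, whose use of strand was not stated. Per the labels, the authors used fastp and RSEM, whose release is not given in the sources used here, and name the build GRCh38.p6, although the identifiers are those of mouse genes. The deposited TPM per gene and library were read, and the authors' 3 columns of group means were not used. Without read counts the depth is unknown, and precision was judged from the spread between libraries. Genes with 1 TPM or more in 3 or more libraries were tested with limma 3.58.1 (R 4.3.3, intensity trend, 1 model for 3 groups, two-sided) on the log2(TPM + 1) scale, and each adjusted p is limma's, by the Benjamini-Hochberg method over all genes tested, called under 0.05. The procedure was also run on simulated data with planted differences. These data held no shift in library makeup, so they do not bear on the choice of scaling.

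The members, gene lists and roles were chosen with earlier results of these data known. Named genes were members called with an absolute log2 difference of at least 1 and 5 TPM or more as the mean of the higher group, the 5 smallest p between QJHTD and Model, and genes fixed by role (Abca1, Abcg1, Abca3, Abcb1a, Abcb1b, Abcg2, Abcc1, Abce1 and Abcc9), with the pathway lists, Cftr, Tap1 and Tap2. Other members named with values (such as Abcc4, Abca4, Abcb6, Abcd3, Abcd4, Abcf2 and Abcf3) and examples from lists were chosen after their values were seen. The single values of 2 tested members are not reported here; counts, medians and sums include them.

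Coordinates and shared stretches came from GENCODE M21 (GRCm38), and promoters from RefSeq (GRCm38.p6), which matched 38 of the 50 genes by symbol. The promoter listed for Abcb1a starts 92986 bases from the GENCODE start of the gene and was not shown. Alternatives were 3 other scalings, a pseudocount of 0.1, a filter at a mean of 5 TPM or none, a model without the third group or without the intensity trend, a replicate block, and fits without each library in turn or without M2 and Q1. Figures were drawn with matplotlib 3.10.9.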

Additional observations from a re-analysis of the deposited data

How the results depend on the processing

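The scaling moved the counts most. Between Model and Control, 4 genes rose and 17 fell as deposited, 14 and 7 after median-ratio rescaling, 12 and 9 after quantile normalization, 15 and 7 after TPM were computed anew without segments, hemoglobin genes and mitochondrial genes (34 members tested), and 2 and 7 with a mean of at least 5 TPM, where 18 members were tested. Over all 16080 genes tested, 2674 rose and 9079 fell as deposited, 5108 and 4588 after median-ratio rescaling, and 4011 and 6214 after quantile normalization. With recomputed TPM 5568 of 16581 genes rose and 3964 fell. With a mean of at least 5 TPM 1842 of 10617 rose and 6257 fell. Between QJHTD and Control, 4 and 16 became 15 and 5, 10 and 6, 16 and 4, and 2 and 6 in the same order. Over all genes tested in that comparison, 2741 and 8630 became 5119 and 4536, 4032 and 6124, 5983 and 3616, and 1876 and 5955. The sign of the Model minus Control difference turned for Abca7 (0.40 after median-ratio rescaling, 0.27 after quantile normalization, 0.48 with recomputed TPM), Abcb8 (0.45, 0.32, 0.54), Abcc3 (0.36, 0.20, 0.44), Abcc9 (0.14, 0.078, 0.22), Abcd2 (0.27, 0.17, 0.35), Abce1 (0.53, 0.34, 0.62), Abcf1 (0.44, 0.22, 0.52) and Abcf2 (0.23, 0.056, 0.31). With median-ratio rescaling and recomputed TPM it also turned for Abcc5 (0.060, 0.14) and Abcd3 (0.069, 0.15), and with recomputed TPM alone for Abcd4 (0.037). All of these but Abcf2, Abcc5, Abcd3 and Abcd4 had not been called as deposited.

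Leaving out 1 library gave 4 to 5 rises and 13 to 16 falls between Model and Control, 3 to 4 and 13 to 16 between QJHTD and Control, and 0 calls between QJHTD and Model. Over all genes tested, these fits gave 2418 to 2662 rises and 8132 to 9023 falls between Model and Control. Between QJHTD and Control they gave 2490 to 2764 rises and 7611 to 8670 falls. The sign turned, among differences that were not called, for Abca2 (-0.0027 to 0.12), Abcb8 (-0.19 to 0.13) and Abce1 (-0.069 to 0.042), and without M2 and Q1 for Abcb8 (0.0051) and Abce1 (0.040). The cause was not tested for any of these.

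Deviations of same-numbered libraries from their group means had correlations of -0.10 to 0.09 over 9 pairs. For libraries of different number these were -0.15 to 0.14 over 18 pairs. Such values cannot show whether libraries of the same number shared a batch. With the numbers as a replicate block, 4 rose and 16 fell between Model and Control, 4 and 15 between QJHTD and Control, and 0 were called between QJHTD and Model. Of all 16080 genes tested, 2626 rose and 8839 fell between Model and Control with the block, and 2662 and 8350 between QJHTD and Control. With the block Abcd4 was not called between Model and Control (adjusted p 0.0549 by limma).

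With a mean of at least 5 TPM, the 15 members with a lower mean gave no value, Abca17, Abcb1a, Abcb1b, Abcc4 and Abcc9 among them. Depth is unknown, and members at or below 1 TPM could not be judged.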

Other observations

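Some untested members with low values are given as values only. Abca14, a member related to Abca17, was at 0.26, 0.32 and 0.28 TPM in the Control libraries, at 0 in M1 and M2, and at 0.06 TPM in M3, and among the QJHTD libraries it was listed above 0 in Q2 alone, with 0.20 TPM. Abcg8, 1 of the 2 parts of the sterol pump of liver and gut, was listed at 0 in all Control and QJHTD libraries and at 0.08, 0.02 and 0.06 TPM in M1 to M3. Abcc6, known from liver and kidney and mutated in pseudoxanthoma elasticum, was at 0.11, 0.07 and 0.12 TPM in the Control and at 0.01 to 0.04 TPM in the exposed libraries. Reads behind values of this size are unknown, and these genes were picked once their values were known.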
